A study of Mus musculus with 4 samples.

Results

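The regions described here are places where phosphorylated CREB was called in both forskolin libraries of MC3T3-E1 cells, more than 100 kb from the start of any protein-coding transcript. Peaks of 4 lists were merged where they shared 1 bp or more, which gave 28335 regions in mouse build mm9. Of these, 17536 had a peak in both forskolin libraries. The centre lay more than 100 kb from the nearest protein-coding transcription start site (TSS) in 1709 of them, or 9.75% (95% Wilson interval 9.32 to 10.2%, which like all intervals here covers counting error only). They are called desert regions below. They were chosen by their forskolin calls, in any vehicle state, and by distance, so neither of these is a result.

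MC3T3-E1 is a pre-osteoblast line grown from mouse calvaria. The tested cells received 100 nM forskolin for 1 h and the control cells received DMSO vehicle for the same time, with 2 libraries each. No allele, transgene or other agent is given in the labels for either treatment, and all libraries come from this 1 cell line. The antibody was directed at CREB phosphorylated on serine 133. The lists held 25566 and 19371 peaks for forskolin replicates 1 and 2, and 14686 and 10180 peaks for vehicle replicates 1 and 2. All peaks of a list had the same width, between 301 and 311 bp. Read totals were not analysed here. If each score is a whole number of sequence tags times a constant, the steps between low scores put the depth of forskolin replicate 2 at 0.347 of that of forskolin replicate 1, and those of vehicle replicates 1 and 2 at 1.03 and 1.07 of it. Of 10 osteoblast lineage markers, 7 had a peak region shared by the forskolin libraries no more than 10 kb from a start, while Col1a2, Msx2 and Pth1r had none. The same count was 2 of 6 for adipocyte markers, 2 of 6 for chondrocyte markers, 1 of 6 for skeletal muscle markers and 1 of 6 for haematopoietic or osteoclast markers. Of all 22225 protein-coding genes, 46.6% had such a region. Within 1 kb of a start the count was 2 of 10 osteoblast lineage markers, against 37.2% of all protein-coding genes. There it was 1 of 6 for adipocyte and for chondrocyte markers, and 0 of 6 for muscle and for haematopoietic or osteoclast markers. A peak near a marker is not a measure of its expression.

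CREB is a leucine-zipper transcription factor that binds the cAMP response element (CRE). Forskolin activates adenylyl cyclase, cAMP activates protein kinase A, and the kinase phosphorylates CREB on serine 133, which allows CREB to recruit the coactivators CBP and p300. Parathyroid hormone acts on osteoblast lineage cells largely through the same second messenger. CREB is best known for binding CpG-rich promoters, and distal enhancers of bone genes can lie far from their promoters. In chromatin from a whole culture, binding in fewer cells and weaker binding per cell cannot be told apart.

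The sequences below are chosen examples of what the regions carried at their centres. Each is the plus strand of 201 bases around the region centre in mm9, 5′ to 3′, named by the protein-coding genes whose TSS lie on its left and right. Capitals mark the full CRE (TGACGTCA), its core (TGACG, or CGTCA on the other strand), the AP-1 site (TGAGTCA, or TGACTCA on the other strand) and the RUNX site (TGTGGT, or ACCACA on the other strand). The full CRE holds the core on both strands, and the AP-1 site does not hold it. Most of the sequences shown hold a core, where 30.0% of all desert regions did. The first 3 are among the 4 strongest desert regions, ordered by the lower of their 2 forskolin score percentiles.

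Foxc2-1700018B08Rik (chr8:123751755-123751955): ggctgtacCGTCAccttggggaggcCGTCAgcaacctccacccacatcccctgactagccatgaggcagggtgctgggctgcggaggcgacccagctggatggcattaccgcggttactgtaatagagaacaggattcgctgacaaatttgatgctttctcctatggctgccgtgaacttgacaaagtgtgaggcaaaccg
Pard3-Gm17350 (chr8:130162965-130163165): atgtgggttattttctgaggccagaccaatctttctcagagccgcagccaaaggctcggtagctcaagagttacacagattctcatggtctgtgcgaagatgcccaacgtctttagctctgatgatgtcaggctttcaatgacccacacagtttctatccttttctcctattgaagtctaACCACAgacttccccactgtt
Dtwd1-Atp8b4 (chr2:126129109-126129309): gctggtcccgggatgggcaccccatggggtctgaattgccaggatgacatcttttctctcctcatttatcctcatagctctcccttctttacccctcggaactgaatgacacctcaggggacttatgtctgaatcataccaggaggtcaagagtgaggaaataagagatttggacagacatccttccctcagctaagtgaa

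The first of these held 2 CRE cores on the minus strand, at -90 and -73 bp from the centre. The second held a RUNX site only, and the one between Dtwd1 and Atp8b4 held none of the marked letters. The next 6 are the 5 strongest desert regions with a full CRE and, for its neighbour, the region between Areg and Btc.

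Dusp10-Hlx (chr1:185964589-185964789): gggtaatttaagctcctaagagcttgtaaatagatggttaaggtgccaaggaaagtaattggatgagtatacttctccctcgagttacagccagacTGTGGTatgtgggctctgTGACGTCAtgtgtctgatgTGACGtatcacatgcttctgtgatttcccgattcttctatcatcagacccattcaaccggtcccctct
Map2k6-Kcnj16 (chr11:110503974-110504174): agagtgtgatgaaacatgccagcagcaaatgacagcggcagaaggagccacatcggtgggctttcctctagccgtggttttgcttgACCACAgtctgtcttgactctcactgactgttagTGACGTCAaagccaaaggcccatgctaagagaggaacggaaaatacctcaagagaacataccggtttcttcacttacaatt
Sh3bp4-Agap1 (chr1:91087977-91088177): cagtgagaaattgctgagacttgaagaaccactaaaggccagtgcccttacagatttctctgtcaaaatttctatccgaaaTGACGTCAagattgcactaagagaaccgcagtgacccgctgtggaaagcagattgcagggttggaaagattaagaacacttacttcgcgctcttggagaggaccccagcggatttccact
Foxa2-Sstr4 (chr2:148081359-148081559): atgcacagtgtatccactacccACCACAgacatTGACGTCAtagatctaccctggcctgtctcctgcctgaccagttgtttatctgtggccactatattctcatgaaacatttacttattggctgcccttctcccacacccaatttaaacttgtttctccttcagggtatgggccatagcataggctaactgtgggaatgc
Klf14-AB041803 (chr6:31046483-31046683): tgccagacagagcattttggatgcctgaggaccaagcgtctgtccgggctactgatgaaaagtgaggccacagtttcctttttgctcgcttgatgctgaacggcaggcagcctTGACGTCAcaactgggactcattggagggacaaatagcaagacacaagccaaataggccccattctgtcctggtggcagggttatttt
Areg-Btc (chr5:91712185-91712385): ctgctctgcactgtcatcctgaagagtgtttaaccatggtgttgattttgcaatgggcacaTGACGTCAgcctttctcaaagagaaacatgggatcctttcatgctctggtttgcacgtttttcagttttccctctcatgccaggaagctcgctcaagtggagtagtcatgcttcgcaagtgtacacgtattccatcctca

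The full CRE lay 17.5 bp right of the centre in the region near Dusp10, 23.5 bp right of it near Map2k6, and 16.5 bp right of it between Klf14 and AB041803. In the region near Sh3bp4 it lay at -15.5 bp, to the left of the centre. The region between Foxa2 and Sstr4 had its full CRE farthest out, at -63.5 bp from the centre, with a RUNX site beside it. The region between Areg and Btc had it at -35.5 bp. The last 4 carry CRE cores without the full palindrome. The first pair had no vehicle peak and ranked next after the strongest such region. That region, in Fndc3b, held none of the marked letters and is not shown. The other 2 are the strongest desert regions beside Nr4a3 and Klf4.

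Adamts5-N6amt1 (chr16:86994124-86994324): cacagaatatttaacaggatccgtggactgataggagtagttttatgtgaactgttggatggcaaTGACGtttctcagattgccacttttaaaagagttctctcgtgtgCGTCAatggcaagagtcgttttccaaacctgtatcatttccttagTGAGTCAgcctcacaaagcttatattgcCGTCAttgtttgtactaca
Irs2-Col4a2 (chr8:11173399-11173599): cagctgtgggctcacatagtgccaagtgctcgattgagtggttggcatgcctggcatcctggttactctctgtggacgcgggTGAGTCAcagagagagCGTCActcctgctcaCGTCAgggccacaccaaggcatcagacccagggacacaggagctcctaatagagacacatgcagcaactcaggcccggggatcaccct
Sec61b-Nr4a3 (chr4:47600230-47600430): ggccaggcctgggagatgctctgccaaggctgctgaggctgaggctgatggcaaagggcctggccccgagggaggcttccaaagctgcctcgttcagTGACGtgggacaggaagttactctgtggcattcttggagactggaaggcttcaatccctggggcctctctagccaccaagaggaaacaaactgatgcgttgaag
Klf4-Actl7b (chr4:55664020-55664220): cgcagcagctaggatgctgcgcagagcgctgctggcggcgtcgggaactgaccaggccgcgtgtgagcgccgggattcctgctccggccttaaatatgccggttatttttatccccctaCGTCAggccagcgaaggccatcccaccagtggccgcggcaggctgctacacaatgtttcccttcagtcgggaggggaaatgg

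The window between Adamts5 and N6amt1 held 3 CRE cores and an AP-1 site. The window between Irs2 and Col4a2 held 2 CRE cores, 1 of them at the centre itself, and an AP-1 site at -15 bp. The window beside Nr4a3 had its single core at -1 bp.

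The scores are the authors' deposited values per peak and their scale is not stated. A score percentile below is the rank of a peak within its own list, from 0 for the weakest to 100 for the strongest. The strongest desert region, chr8:123751639-123752071, had scores of 291.2 and 185.9 in forskolin replicates 1 and 2, and of 18.8 and 11.4 in vehicle replicates 1 and 2. Its percentiles were 99.9 and 99.8 in the forskolin lists and 77.4 and 56.6 in the vehicle lists. The region lies 111.8 kb from Foxc2, which encodes a forkhead factor of vessel and skeletal development, inside Gm20388, a predicted gene model. It is 100015 bp from Foxl1, which this annotation lists as a pseudogene.

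The second, chr8:130162892-130163239, lies 191.4 kb from Pard3, a cell polarity scaffold gene. It scored 256.3 and 150.1 with forskolin, and 16.0 and 10.3 with vehicle.

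A further 6 of the 10 strongest stood largely in pairs. Between Dtwd1 and Atp8b4, chr2:126129045-126129373 scored 201.7 and 123.2 with forskolin, and 15.5 in vehicle replicate 1 with no peak in vehicle replicate 2. Its neighbour chr2:126135711-126136120 scored 234.1 and 111.5 with forskolin, and 18.1 and 15.2 with vehicle. A further pair lay between Kcng1 and Nfatc2, the gene of a calcium-regulated transcription factor. Of that pair, chr2:168277315-168277688 scored 161.8 and 111.5 with forskolin against 24.4 and 17.5 with vehicle. The other, chr2:168284137-168284529, scored 172.1 and 98.4 with forskolin against 10.7 and 11.4 with vehicle.

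The ninth, chr5:47185401-47185737, was the most isolated, 936.7 kb from Lcorl and 1189 kb from Slit2, which encodes a guidance ligand. It scored 122.9 and 91.6 with forskolin, and 22.5 and 17.7 with vehicle. The tenth, chr1:14000852-14001216, lies 273.0 kb from Eya1, a developmental transcription cofactor gene, and scored 121.7 and 90.2 with forskolin and 11.1 and 6.5 with vehicle. Of these 8 regions, only the first Dtwd1 region lacked a peak in a vehicle list.

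The full-CRE regions ranked a little lower. The strongest, chr1:185964528-185964851, lies 106.4 kb from Dusp10, which encodes a phosphatase of the p38 and JNK kinases. It scored 101.9 and 75 with forskolin, and 20.4 and 15.9 with vehicle. The next, chr11:110503896-110504252, lies 243.6 kb from Map2k6, the gene of a kinase that activates p38, and scored 120.8 and 70.2 with forskolin, and 6.3 and 6.7 with vehicle. Its percentiles were 98.0 and 96.0 with forskolin and 6.1 and 10.9 with vehicle, so it stood among the top peaks of both forskolin lists and near the bottom of both vehicle lists. The regions chr1:91087905-91088250 beside Sh3bp4, chr2:148081267-148081651 between Foxa2 and Sstr4, and chr6:31046417-31046749 between Klf14 and AB041803 scored between 68.7 and 88.8 in forskolin replicate 1 and between 52.3 and 59.2 in forskolin replicate 2. Their vehicle scores ran from 10.7 to 20 in replicate 1 and from 10.8 to 15.7 in replicate 2.

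Many desert regions had no peak in the vehicle lists. Neither vehicle list held a peak at 811 of the 1709, or 47.5% (45.1 to 49.8%), where 29.6% of all regions of both forskolin libraries had none. A peak in exactly 1 vehicle list was found at 442 desert regions, or 25.9%, against 19.5% of all regions of both forskolin libraries. Both vehicle lists held a peak at 456, or 26.7%, against 50.9% of all such regions. Vehicle replicate 1 had a peak at 855 and vehicle replicate 2 at 499. A region with no vehicle peak is one that was not called there, and a signal under the authors' calling limit cannot be told apart from none. With every list cut to its 10180 top-scoring peaks, the share with no vehicle peak was 38.4% of 596 desert regions, against 18.6% of all regions of both forskolin libraries. Without vehicle replicate 1 it was 70.9%, against 46.8%.

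The share was close to that of regions 10 to 100 kb out. There 2725 of 5909 regions, or 46.1% (44.8 to 47.4%), had no vehicle peak, and this interval overlaps that of the desert regions. Within 1 kb of a TSS the share was 7.87%, and 78.0% of those 7585 regions had a peak in both vehicle lists. From 1 to 10 kb it was 45.2%, and it stayed between 45.3 and 48.3% in each bin from 10 kb to 200 kb. Among desert regions it was 48.3% at 100 to 200 kb, 47.1% at 200 to 500 kb and 40.2% of the 97 regions beyond 500 kb. The low share was that of the bin at the promoter. The distances themselves ran from 100.021 to 1514.4 kb with a median of 166 kb and quartiles of 125 and 251 kb.

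**Figure D1:**
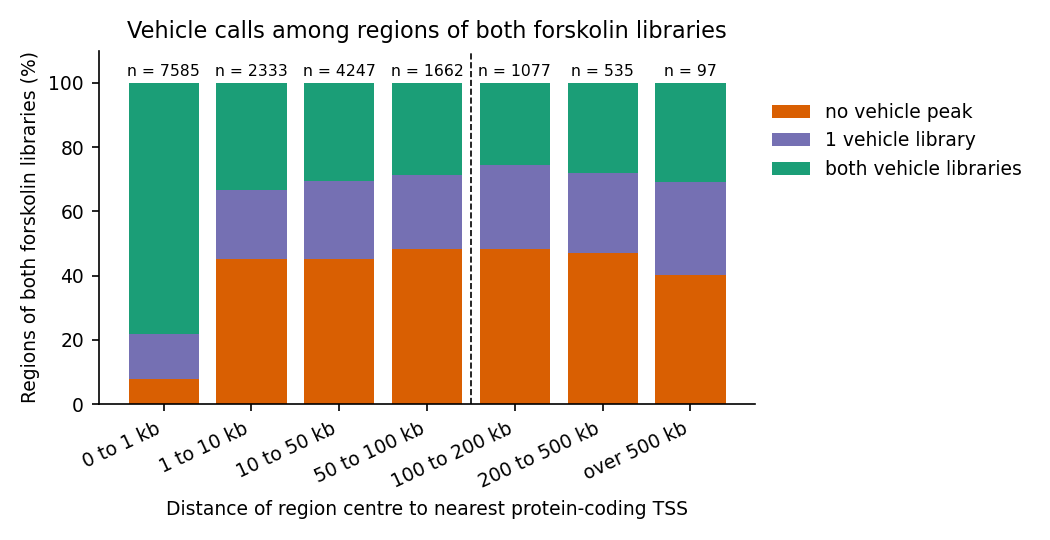
Share of regions of both forskolin libraries (y axis, %) with no vehicle peak, a peak in 1 vehicle library or a peak in both, by distance of the region centre to the nearest protein-coding TSS (x axis), with the number of regions above each bar. Desert regions lie right of the dashed line at 100 kb; the no-vehicle share is 7.87% in the 0 to 1 kb bar and 40.2 to 48.3% in the 3 desert bars.

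In the other direction, few vehicle peaks of the deserts were missing with forskolin. Beyond 100 kb, 503 regions had a peak in both vehicle lists, and 456 of them (90.7%) also had one in both forskolin lists. No forskolin peak was found at 12 (2.39%, 1.37 to 4.12%), against 1.32% of all 9452 regions of both vehicle libraries.

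Where all 4 lists held a peak, the ranks could be compared. Of 456 such desert regions, 288 (63.2%, 58.6 to 67.5%) ranked higher in both forskolin lists than in either vehicle list, against 44.6% of all regions of all 4 libraries. In the opposite order stood 6 (1.32%), against 2.51% of all such regions. These ranks depend on the length and make-up of each list. With ranks taken only among the 8930 regions of all 4 libraries, 208 desert regions (45.6%) ranked higher and 66 (14.5%) ranked lower, against 18.4% and 31.3% of all of them. Without vehicle replicate 2, 573 of 851 desert regions (67.3%) ranked higher with forskolin, against 51.6% of all regions called in the 3 remaining libraries. The shares lay closer together without forskolin replicate 2, at 82.7% against 72.8%, and without vehicle replicate 1, at 80.7% against 74.6%.

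**Figure D2:**
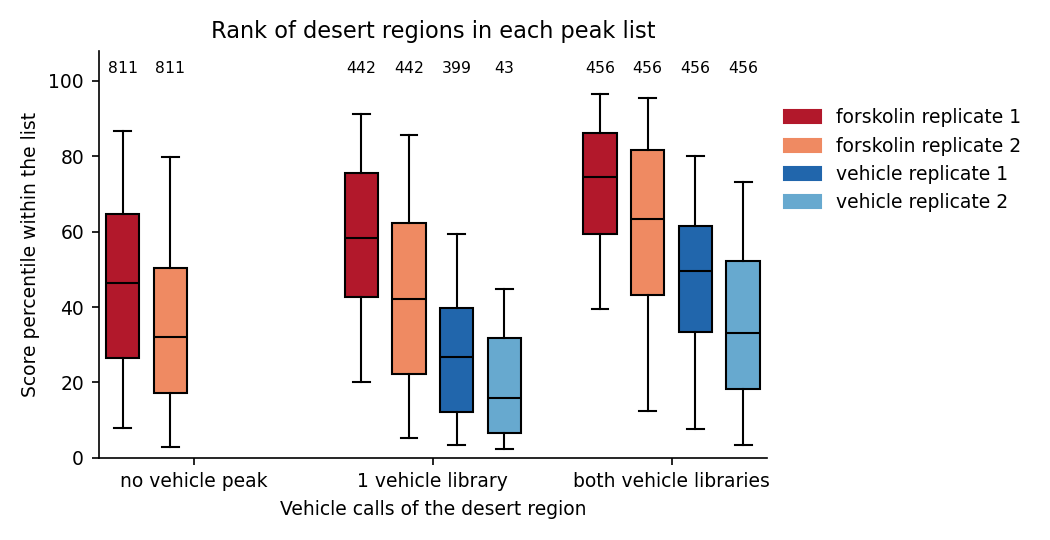
Score percentile of the desert regions within each peak list (y axis, 100 is the strongest), by vehicle calls (x axis) and library (colour). Boxes span the quartiles with the median as a line, whiskers the percentiles 5 to 95, and numbers above give the regions with a peak; the forskolin medians are lowest, 46.3 and 31.9, for regions with no vehicle peak.

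Desert regions were mid-ranking in the forskolin lists. Their median score was 17.4 in forskolin replicate 1 and 12.4 in forskolin replicate 2, at median percentiles of 57.8 and 40.3. Those with a vehicle peak had median vehicle scores of 9.5 (n = 855) in replicate 1 and 8.5 (n = 499) in replicate 2, at percentiles of 37.8 and 31.8. Desert regions with no vehicle peak ranked lowest, with median forskolin percentiles of 46.3 and 31.9. Those with 1 vehicle peak stood at 58.4 and 42.2, and those with both at 74.6 and 63.3. The lower forskolin percentile exceeded 90 in 10 of 811 desert regions with no vehicle peak, in 13 of 442 with 1 and in 48 of 456 with both. Under the step assumption, the median desert region held 72.9 and 18 tags in forskolin replicates 1 and 2, and 40.9 and 37.9 tags in vehicle replicates 1 and 2 where called.

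The strongest regions with no vehicle peak were chosen after their values were seen. They were led by chr3:27392960-27393301, in an intron of Fndc3b, which had forskolin scores of 124.1 and 73.7. Next came chr16:86994058-86994391 between Adamts5, which encodes an aggrecan-cleaving protease, and N6amt1, with forskolin scores of 80.7 and 57.8. The third, chr8:11173344-11173655, lies between Irs2, which encodes an insulin receptor substrate, and Col4a2, a basement membrane collagen gene, and scored 70.9 and 55.8. All 3 were above percentile 93 in both forskolin lists.

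The 2 forskolin libraries ranked desert regions less alike than nearer ones. Across the 1709 desert regions, Spearman's rho between the percentiles of the forskolin lists was 0.73, where it was 0.77 over 5909 regions at 10 to 100 kb and 0.85 over 15827 regions within 100 kb. Between the vehicle lists, over regions of all 4 libraries, it was 0.5 in deserts (n = 456), 0.64 at 10 to 100 kb (n = 1778) and 0.85 within 100 kb (n = 8474). These are descriptions over regions that share their libraries, and the range of scores was wider near genes, up to 8654.3 in forskolin replicate 1 against 291.2 in deserts.

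Counted library by library, without the requirement of both forskolin calls, the forskolin lists held a larger share of desert peaks. Beyond 100 kb lay 3029 peaks (11.8%) of forskolin replicate 1 and 1886 (9.74%) of forskolin replicate 2, against 1196 (8.14%) of vehicle replicate 1 and 570 (5.6%) of vehicle replicate 2. Both forskolin shares were above both vehicle shares, by 3.92 percentage points on average. An exact permutation test of 2 against 2 libraries gave a two-sided p of 0.333, the smallest it can give, so the design cannot reach 0.05. With lists of equal length the shares were 8.36 and 7.48% with forskolin against 6.21 and 5.6% with vehicle, a difference of 2.01 points. From the top 50% of each list the difference was 4.84 points. Both cuts also removed weaker peaks, so the effect of list length alone was not tested. The groups did not overlap under any of these counts. With a limit of 200 kb the difference was 1.43 points. Desert peaks were not alone in this. From 1 to 10 kb lay 14.7 and 14.0% of the forskolin peaks against 11.2 and 9.91% of the vehicle peaks. From 10 to 50 kb the shares were 27.0 and 24.9% against 19.7 and 16.0%. From 50 to 100 kb they were 11.2 and 9.79% against 7.51 and 5.91%. Within 1 kb of a TSS the order was reversed, at 35.2 and 41.6% against 53.4 and 62.5%.

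**Figure D3:**
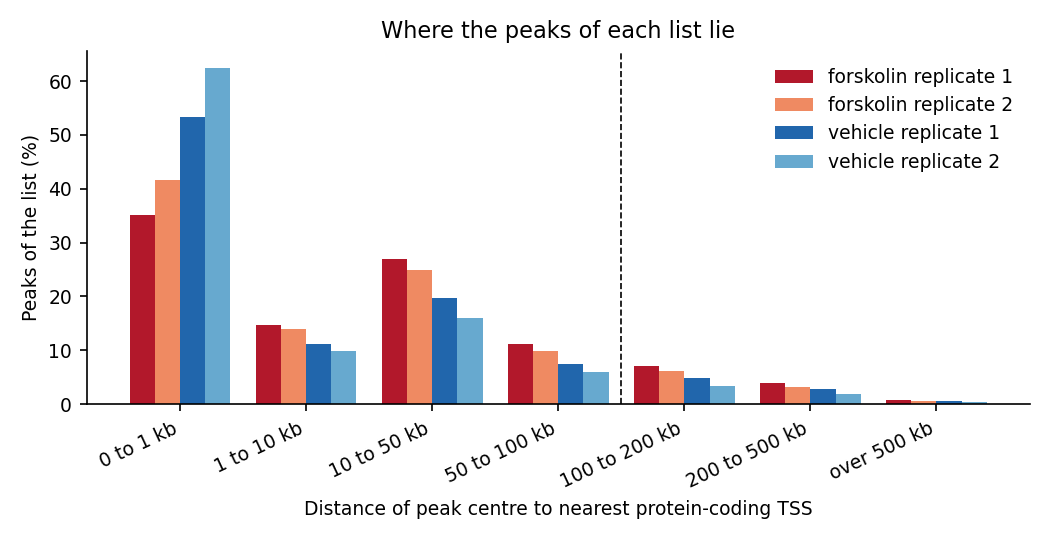
Share of each list's peaks (y axis, %) by distance of the peak centre to the nearest protein-coding TSS (x axis), 1 bar per library. Right of the dashed line at 100 kb lie 11.8 and 9.74% of the forskolin peaks and 8.14 and 5.6% of the vehicle peaks, summed over the 3 bins. The 0 to 1 kb bin holds 35.2 and 41.6% of the forskolin peaks and 53.4 and 62.5% of the vehicle peaks.

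CRE letters were concentrated at the centres of desert regions, although most regions had none. The CRE core was present within 100 bp of the centre in 512 (30.0%, 27.8 to 32.2%), against 5.38% of equally long windows centred 2 kb away. The full CRE was present in 62 (3.63%, 2.84 to 4.62%), against 0.119% of the flanking windows. At most 1 of the 8 letters differed from the full CRE in 309 (18.1%), against 4.43% of the flanking windows; this count was added after the sequences had been seen. Among all regions at 10 to 100 kb the core was found in 33.2% and the full CRE in 3.89%, and within 100 kb in 36.5% and 5.02%. The intervals of the core share, 27.8 to 32.2% in deserts and 32.0 to 34.4% at 10 to 100 kb, met at their edges. The full CRE share of the desert regions was higher in shorter lists, at 6.08% from the top 50% of each list and 6.38% from lists of equal length.

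Sites of other factor families were centred in the same windows. The AP-1 site, bound by FOS and JUN dimers, was present in 366 desert regions (21.4%), against 3.68% of flanking windows, 20.8% of regions at 10 to 100 kb and 11.6% within 100 kb. The RUNX site, the letters read by Runx2, the factor that commits cells to the osteoblast lineage, was present in 626 (36.6%), against 14.7% of flanks, 34.8% at 10 to 100 kb and 21.5% within 100 kb. The TEAD site (GGAATG), read by factors of the Hippo pathway, was present in 372 (21.8%), against 11.9%, 18.4% and 12.9%. The C/EBP-ATF composite (TGATGCAA) was present in 20 (1.17%), against 0.505% of flanks. Of the promoter elements, the CCAAT box was about as frequent as in flanks, while the GC box was more frequent than in flanks. The CCAAT box (CCAAT) was present in 26.5% of desert regions and 26.1% of flanks. The GC box (GGGCGG) was present in 4.68% of desert regions, against 1.84% of flanks. It was in 8.58% of regions at 10 to 100 kb and in 29.7% within 100 kb.

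The CRE core and the AP-1 site occurred together in 101 desert regions. The core occurred without AP-1 in 411 and AP-1 without the core in 265. Neither was present in 932, or 54.5% (52.2 to 56.9%), where 51.8% of regions at 10 to 100 kb had neither. A region without these letters may still hold other versions of a site.

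**Figure D4:**
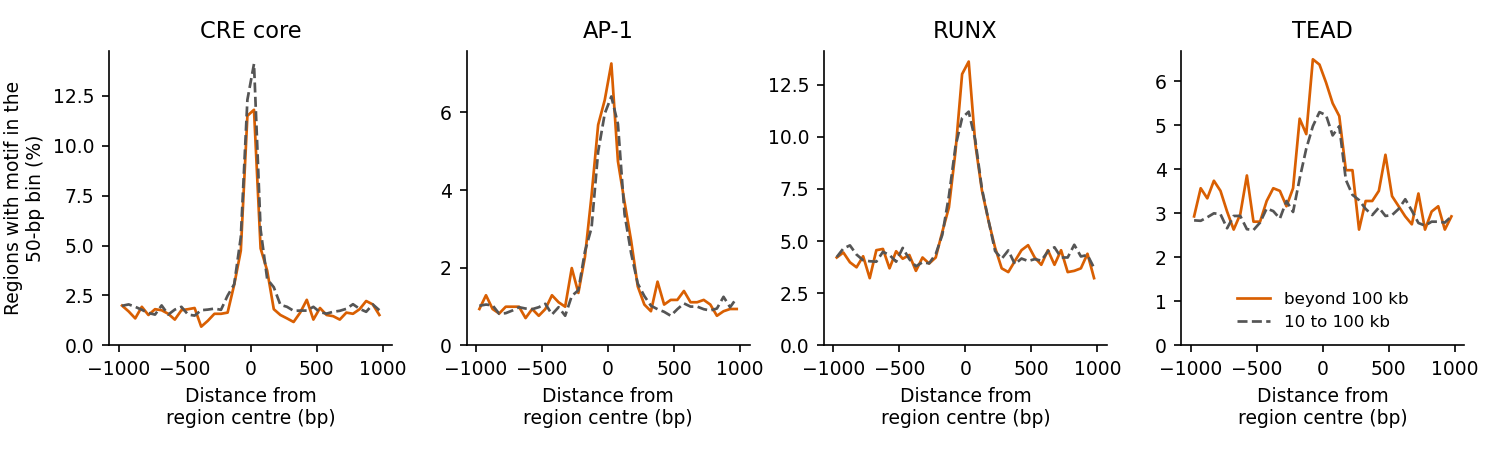
Share of regions (y axis, %) with a CRE core, AP-1, RUNX or TEAD site in each 50-bp bin around the region centre (x axis, bp), for desert regions (solid) and regions 10 to 100 kb from a TSS (dashed). In the bin just right of the centre the desert regions have 11.8% for the core, 7.26% for AP-1, 13.6% for RUNX and 5.97% for TEAD.

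The CRE core was most frequent in desert regions with no vehicle peak. It was in 310 of 811 of them (38.2%), in 88 of 442 with 1 vehicle peak (19.9%) and in 114 of 456 with both (25.0%). At 10 to 100 kb the same shares were 39.2, 22.7 and 32.3%. The full CRE was in 39, 9 and 14 desert regions in the same order, or 4.81, 2.04 and 3.07%. At 10 to 100 kb its shares were 3.6, 2.35 and 5.57%, so there it was most frequent with both vehicle peaks. AP-1 varied less, at 23.2, 21.9 and 17.8%, and RUNX was at 35.5, 36.7 and 38.6%. TEAD was at 18.6% with no vehicle peak, 25.1% with 1 and 24.1% with both. Desert regions with a core also ranked higher with forskolin, at median percentiles of 70.0 and 55.9 against 54.5 and 36.4 without a core. For AP-1 the medians were 56.5 and 40.3 with the site, against 58.4 and 44.1 without it.

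The same measures were also taken per library, without the requirement of both forskolin calls. They are not independent of the values above, since forskolin replicate 2 had 1886 desert peaks and the desert regions number 1709. The core was in 25.2 and 29.0% of desert peaks of forskolin replicates 1 and 2, and in 16.5 and 20.9% of those of vehicle replicates 1 and 2. The groups did not overlap. In peaks within 100 kb the core shares were 31.6 and 34.7% with forskolin and 29.9 and 37.3% with vehicle, so there the groups overlapped. At 10 to 100 kb they were 28.0 and 30.9% with forskolin and 21.0 and 29.5% with vehicle, again with overlap. AP-1 was in 21.5 and 19.8% of desert peaks with forskolin and 17.2 and 16.1% with vehicle. TEAD was in 22.1 and 20.2% with forskolin and 24.8 and 25.4% with vehicle. Peaks 10 to 100 kb out differed in the same directions. There AP-1 was in 20.8 and 18.6% with forskolin and 16.2 and 12.4% with vehicle. TEAD was there in 19.1 and 17.6% with forskolin and 22.2 and 22.2% with vehicle.

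Set against all other peaks of the same library, desert peaks had the core less often in all 4 libraries, with a mean difference of -10.5 percentage points. They had AP-1 more often in all 4, with a mean difference of 9.37 points, and a lower mean GC content, with a mean difference of -9.6 points. They ranked lower in their list, with a mean difference in the median of -15.5 percentile points. Each of these had an exact sign-flip permutation p of 0.125 over 4 libraries, two-sided, which is the smallest that 4 libraries allow. The differences were smaller without the promoter peaks. Against peaks 10 to 100 kb out, the mean difference was -4.46 points for the core, 1.65 points for AP-1 and -3.09 points for GC content (p = 0.125 each by the same exact test). The difference in rank was -1.1 points in forskolin replicate 1 and 0 in the other libraries (mean -0.275, exact p = 1). The RUNX site was more frequent in desert peaks than in peaks 10 to 100 kb out by 3.8 points and the TEAD site by 2.85 points (exact p = 0.125 each). This comparison with peaks 10 to 100 kb out was chosen after seeing the data.

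Few desert regions were rich in CpG. Their median GC content was 47.3%, against 49.8% at 10 to 100 kb and 55.7% within 100 kb. The median ratio of observed to expected CpG was 0.262, against 0.311 and 0.564. With a GC content above 50% and a ratio above 0.6, 38 desert regions (2.22%) were CpG-rich, against 7.65% at 10 to 100 kb and 43.6% within 100 kb. Only 10 desert regions had a further copy elsewhere in the genome at 90% identity over 200 bp or more. Among them 5 had 10 or more copies, and 4 of these 5 had a peak in both vehicle lists.

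Gene desert describes 1255 of the 1709 regions, or 73.4%, which lay outside every protein-coding gene body. The other 454 (26.6%) lay inside 225 long genes, 439 of them in introns only and 15 touching an exon. No vehicle peak was called at 51.3% of the regions inside gene bodies and at 46.1% of those outside. The gene model with the most was Gm20388, with 23. Wwox, an oxidoreductase gene that spans a common fragile site in humans, held 12, Vti1a, a vesicle fusion gene, held 11, and Bre and Rad51l1, both DNA repair genes, held 9 each. Noncoding starts were near in some cases. A noncoding TSS lay within 1 kb of 28 desert regions and within 10 kb of 121, and 867 (50.7%) were more than 100 kb from any annotated TSS.

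The 3 strongest within 1 kb of a start of the lincRNA or processed transcript type, chosen after their values were seen, lay beside 4930579D09Rik, Gm13834 and Gm11818. The region 183 bp from the start of 4930579D09Rik, between Etnk1 and Sox5, scored 115.0 and 56.5 with forskolin, and 14.2 in vehicle replicate 1 with no peak in vehicle replicate 2. The region 819 bp from the start of Gm13834, between Klf14 and AB041803, scored 40.3 and 30.3 with forskolin, and 18.3 in vehicle replicate 1 with no peak in vehicle replicate 2. The region 68 bp from the start of the lincRNA Gm11818, between Fam92a and Runx1t1, scored 26.3 and 28.2 with forskolin, and 16.0 and 13.0 with vehicle.

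Sequence more than 100 kb from a protein-coding TSS makes up 964.2 Mb, or 37.7%, of the 2559 Mb of this genome without gaps. It held 1.77 desert regions per Mb, where the rest held 9.93 regions of both forskolin libraries per Mb. Among the 19 autosomes the density ran from 0.937 per Mb on chromosome 14 to 3.4 per Mb on chromosome 19. Chromosome X had 0.19 per Mb, with 13 regions in 68.4 Mb. All 19 autosomes were above chromosome X. At any distance, chromosome X held 236 regions of both forskolin libraries in 162080892 bases without gaps. Chromosome 14 held 505 in 121635309 bases and chromosome 19 held 718 in 58142230 bases. These 3 chromosomes thus stood in the same order at any distance as in the deserts.

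Many desert regions had another one near them. Another desert region lay within 10 kb of 419 (24.5%), within 50 kb of 1049 (61.4%) and within 100 kb of 72.0%. Among regions 10 to 100 kb out, another of that set lay within these distances of 28.8, 61.9 and 75.3%. The median distance to the next was 28.9 kb, against 28.3 kb among regions 10 to 100 kb out. Of 2603 intervals between neighbouring protein-coding TSS that exceed 200 kb, 648 held a desert region, and 304 of these held 1. The 98 intervals with 5 or more held 747 regions (43.7%), and the 20 with 10 or more held 263 (15.4%).

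The interval with the most runs over 1817 kb of chromosome 15 between Myc, the gene of a growth-promoting transcription factor, and Gsdmc. It held 23 desert regions, of which 6 had no vehicle peak, 3 had 1 and 14 had both. They ran from 124.9 to 1629 kb beyond the Myc TSS. The strongest, chr15:63192008-63192402, lies 1373 kb from Myc and 443.8 kb from Gsdmc, and scored 106.0 and 67.5 with forskolin and 15.1 and 12.8 with vehicle. The second, chr15:61968679-61969105, lies 149.9 kb from Myc and scored 76.9 and 44.1 with forskolin and 18.1 and 16.1 with vehicle. Of all desert regions, 26.7% had both vehicle peaks.

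The interval between Klf4, which encodes a zinc-finger factor of cell state, and Actl7b held 22 over 1209 kb of chromosome 4, with 5, 10 and 7 in the same order. Its strongest region, chr4:55663940-55664300, lies 118.8 kb from Klf4 and scored 68.0 and 65.4 with forskolin, and 30.2 and 25.6 with vehicle. All 4 percentiles lay between 87.7 and 95.4, so it was strong in both treatments. At the other end of the interval, chr4:56630926-56631299, with a full CRE, scored 34.4 and 24.1 with forskolin and had no vehicle peak.

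Between Zfp608 and Gramd3, 17 regions lay in 1408 kb of chromosome 18, 9 with no vehicle peak and 8 with both, against 47.5 and 26.7% of all desert regions. The interval from Rad51l1 to Zfp36l1, which encodes an mRNA decay factor, held 16 in 799 kb of chromosome 12, 9 of them with no vehicle peak, and 9 of the 16 lay inside Rad51l1. Its strongest, chr12:80988268-80988578, scored 42.2 and 38.6 with forskolin and had no vehicle peak. The interval before Cdh5, the VE-cadherin gene, held 15 in 1236 kb of chromosome 8. There chr8:105795180-105795538 scored 157.1 and 55.1 with forskolin and 15.8 in vehicle replicate 1, with no peak in vehicle replicate 2. Next in order came both intervals that border Maf, with 14 each. An interval was picked for its number of desert regions, so the number itself is a description.

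**Figure D5:**
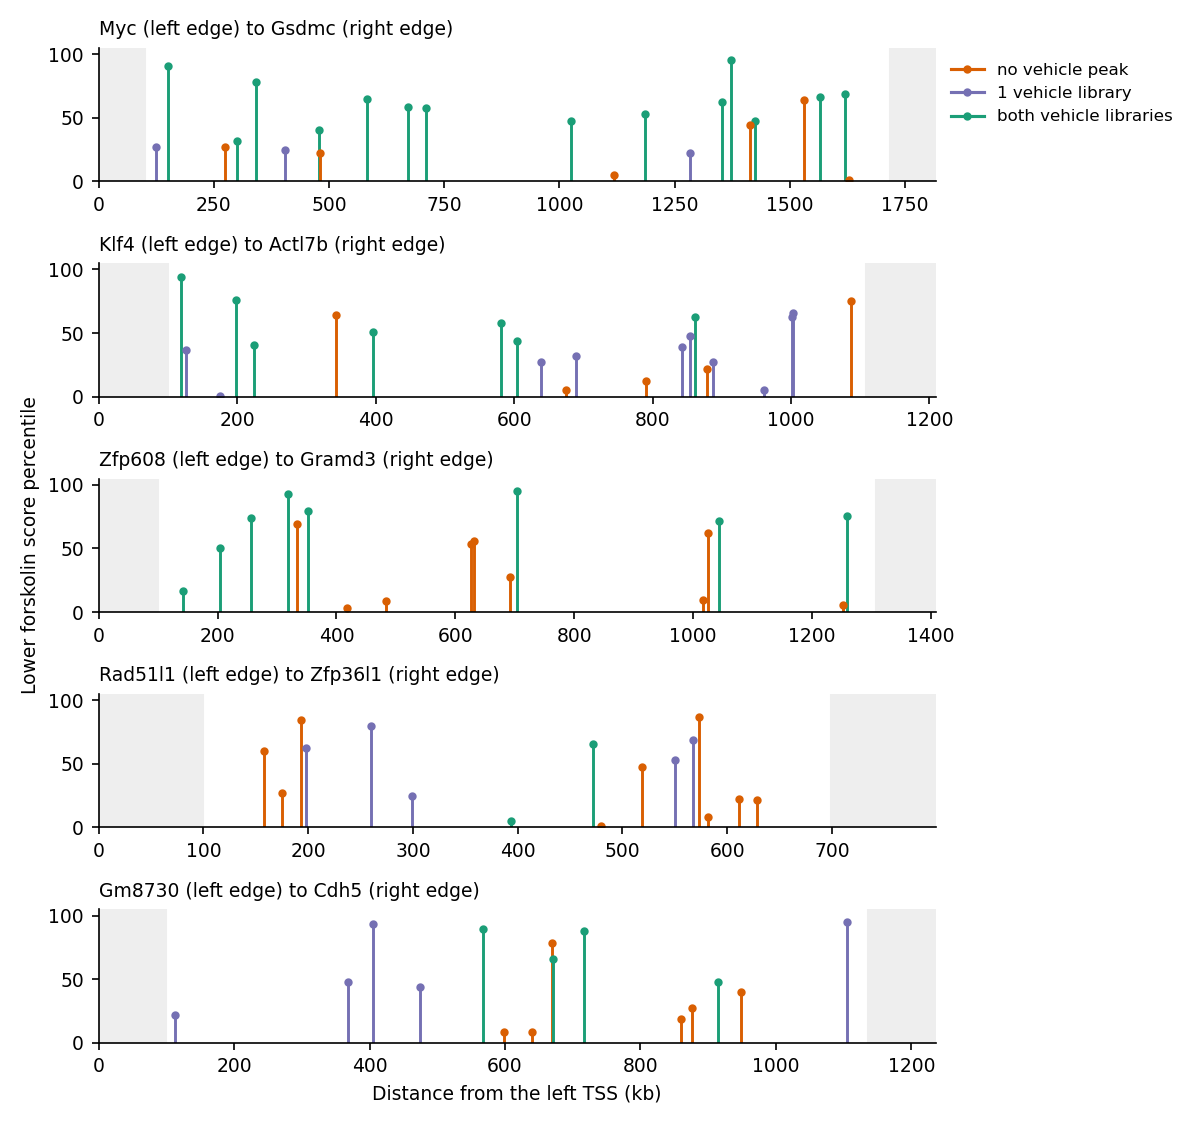
Desert regions in the 5 intervals that hold the most, by distance from the left TSS (x axis, kb) and the lower of the 2 forskolin score percentiles (y axis); colours give the vehicle calls and grey marks the stretches within 100 kb of either TSS. The Myc interval has 14 of 23 regions with both vehicle peaks, and the Rad51l1 interval has 2 of 16.

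Genes of the bone list stood beside several deserts. A gene is counted with a desert region when its TSS is the next protein-coding one to the left or right of the region, or when the region lies in its body. Of all 22225 protein-coding genes 1189 (5.35%) had one, and so did 30.4% of the 3913 genes that border an interval of over 200 kb between neighbouring TSS or hold a desert region. Of 48 bone and PTH or vitamin D responsive genes 15 had one (31.2%), which is 60.0% of the 25 that border such an interval or hold a desert region, with a median of 4 regions among the 15. No test was made over genes.

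Runx2 had 13 desert regions, 142 to 515 kb from its TSS. Of these 9 had no vehicle peak, 1 had a peak in 1 vehicle list and 3 had both, where 47.5% of all desert regions had no vehicle peak. Inside Runx2 itself lay 2, and 5 lay inside the neighbouring gene Supt3h. The strongest, chr17:44447129-44447464, lies 424 kb away towards Clic5 and scored 60.9 and 41.3 with forskolin, and 19.3 and 12.1 with vehicle. The strongest without a vehicle peak, chr17:45182014-45182359, lies in Supt3h and scored 24.8 and 22.0 with forskolin. None of the 13 held a CRE core, where 30.0% of all desert regions did. A RUNX site was in 5 of the 13 and in 36.6% of all desert regions.

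Fgfr2, a fibroblast growth factor receptor of cranial bone growth, had 10, of which 3 had no vehicle peak and 7 had a peak in 1 vehicle list. The interval between Wdr11 and Fgfr2 held 9 of the 10, of which 3 had no vehicle peak and 6 had 1. The other 1, chr7:139615281-139615612, lies between Chst15 and Oat. It counts only because the span given for Fgfr2 in this annotation covers it. The strongest, chr7:137251929-137252240, lies 153 kb away, held a CRE core, and scored 39.4 and 26.8 with forskolin with no vehicle peak. Runx1 had 7, Tgfbr2 and Tgfb2, a receptor and a ligand of the TGF-beta pathway, had 5 each, and Gpc6, Postn and Bmp4 had 4 each. The 4 in Gpc6, a heparan sulphate proteoglycan gene, all lay inside its body. The strongest of them, chr14:118303530-118303877, scored 105.5 and 64.7 with forskolin, and 21.3 and 13.2 with vehicle. Near Dlx6, a homeobox gene of bone formation, chr6:6656763-6657112 scored 58.5 and 38.6 with forskolin, and 6.5 and 7.4 with vehicle, at percentiles of 92.1 and 87.9 with forskolin and 7.7 and 18.4 with vehicle. Nog and Fgf18 had 2 each, and Bmper had 1.

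Of 48 cAMP and CREB target genes 8 had a desert region (16.7%), which is 38.1% of the 21 that border such an interval or hold a desert region. Nr4a3, an orphan nuclear receptor gene induced by cAMP, had 2, at 441 and 458 kb. The farther one, chr4:47600167-47600493, scored 88.1 and 64.0 with forskolin, and 22.0 and 20.4 with vehicle. The nearer one, chr4:47616593-47616955, scored 65.4 and 50.9 with forskolin, and 10.4 and 12.8 with vehicle. Each held a CRE core. Areg, which encodes an EGF receptor ligand induced by parathyroid hormone in osteoblasts, had 1 that lay 144 kb away. That region, chr5:91712093-91712477, with a full CRE, scored 61.3 and 42.7 with forskolin, and 9.5 and 7.2 with vehicle.

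Il6, a cytokine gene, had 2, and the stronger, chr5:30190933-30191324, scored 38.4 and 31.7 with forskolin, and 10.2 and 6.3 with vehicle. Cebpb, which encodes a leucine-zipper factor of the C/EBP family, had 3 within 128 to 135 kb. The strongest, chr2:167649004-167649515, scored 33.2 and 21.3 with forskolin, and 5.6 and 7.4 with vehicle. Adcy8, an adenylyl cyclase gene, and Inhba, an activin subunit gene, had 2 each, and Pde10a and Adcy2 had 1 each. The other 40 genes of this list had none.

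Of 51 developmental transcription factor genes 29 had a desert region (56.9%). That is 59.2% of the 49 that border such an interval or hold a desert region, against 30.4% of all such genes. Klf4 had 22, Sox5 had 16, Sox9 had 12, Zfhx3 had 11 and Zeb2 had 10. Tbx3 and Sox6 had 7 each, Pax3, Irx3, Nfib and Foxp1 had 6 each, and Lmx1b had 4. At Sox9, the master factor of cartilage, 8 of the 12 had no vehicle peak, against 47.5% of all desert regions. The strongest, chr11:112840744-112841076, scored 34.8 and 17.9 with forskolin. The strongest near Pax3, chr1:77862504-77862845, which also borders the ephrin receptor gene Epha4, scored 137.5 and 80.5 with forskolin, and 20.6 and 11.0 with vehicle. The forskolin percentiles there were 98.6 and 97.0, and the vehicle percentiles were 80.3 and 53.7.

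Of 37 axon guidance and adhesion genes of long deserts 18 had one (48.6%), with a median of 1 region. This list was limited to genes of long deserts, so its share depends on that choice. Nearly all of its genes border an interval of over 200 kb or hold a desert region. Among all protein-coding genes that do so, the share with a desert region was 30.4%. Slit3, a guidance ligand gene, had 7, of which 4 lay inside the gene and 6 had no vehicle peak, against 47.5% of all desert regions. The strongest of these, chr11:35063573-35063896, scored 61.3 and 33.0 with forskolin. Epha4 had 6, Lphn2 and Efna5 had 5 each, and Slit2, Epha7 and Sema3a had 3 each. Ntn1 had 2, and Sema3c, Dcc, Cdh6 and Cdh9 had 1 each.

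The 5 regions farthest from any protein-coding TSS were not among the strongest. The farthest, chr17:61441455-61441841, lies 1514 kb from Efna5, had forskolin scores of 6.9 and 8.3, and had no vehicle peak. The next, chr4:30537597-30537953, lies 1513 kb from Map3k7, scored 20.8 and 17.9 with forskolin, and had no vehicle peak either. The 2 beyond Zeb2, at 1326 and 1374 kb, had a peak in vehicle replicate 1 only, and a further one lies 1321 kb from Efna5. At the other end of the range, the desert regions just past the limit lie 100021 bp from Klf14, 100030 bp from Irx3 and 100080 bp from Prickle2. Their scores in forskolin replicate 1 were 71.1, 24.3 and 10.3. The 3 regions just short of the limit lie 99.95 kb from Pigk, 99.94 kb from Akap6 and 99.9 kb from Ephb3, with scores of 10.5, 9.1 and 11.5 in that library.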

How the data were processed

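The 4 phospho-CREB libraries (2 forskolin, 2 vehicle; MC3T3-E1 cells) were grouped by their titles, which also give the replicate numbers. The deposited value is a score per peak, with 1 peak list per library. Bowtie, HOMER and build mm9 are named in the submitters' processing notes, with no versions. Calling thresholds and the score's unit are not given in sources used here. The labels name an input library of another series, which was not analysed here. The series' design text calls the libraries biological replicates.

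Lists were merged at 1 bp or more of overlap. Distances run from the region centre to the nearest start of a transcript of protein-coding biotype in GENCODE M1 on NCBIM37, the same build as mm9. Motif windows reached 100 bp out from the centre, both strands were read, and flanking windows lay 2 kb away and clear of every region. Sequences are from that genome. Copies were sought with BLAST 2.17.0. Scores below 50 were set against steps with a tolerance of 0.05, and 100% of the scores of both forskolin lists and 99.97 and 99.93% of those of vehicle replicates 1 and 2 fell on a step (41.9, 14.5, 43.1 and 44.6% by chance). Depth from these steps is an assumption. No count model was fitted, since no counts were used.

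Shares have 95% Wilson intervals. Tests were exact permutations over libraries. Regions were named as the 10 highest by the lower forskolin percentile, the 5 highest with a full CRE, the 5 farthest, the 5 intervals with the most, the 3 on either side of the limit, and up to 12 genes per list by number of regions. Of the 10 highest, 2 neighbouring regions are not reported here. The members, lists, rules and tests were chosen with earlier results of these data known. Alternatives varied the merging, list length, distance limit, TSS set, window, copies and libraries. Merging, distances and motif counts were tested on simulated lists. Work used Python 3.11.15, numpy 2.4.6, pandas 2.3.3, scipy 1.17.1, pysam 0.24.0 and matplotlib 3.10.9.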

Additional observations from a re-analysis of the deposited data

How the results depend on the processing

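No difference between libraries or between sets of peaks changed sign under any alternative that was run. Counts and shares of regions cannot change sign, and several settings moved them, as given below. The number of desert regions was 1709 as defined. It was 641 from the top 50% of each list, 596 from lists of equal length, 3371 with a limit of 50 kb, 632 with a limit of 200 kb and 867 with the TSS of any transcript. Leaving out a library gave 1704 to 3030, the highest without forskolin replicate 2, where 1 forskolin list alone decides. The share with no vehicle peak, 47.5%, was 67.2% from the top 50% (33.3% of all regions of both forskolin libraries) and 38.4% from equal lists (18.6%). Leaving out a library gave 50.1 to 70.9%, the highest without vehicle replicate 1. The full CRE share, 3.63%, was 6.08% from the top 50% and 6.38% from equal lists, and 2.84 to 3.75% without 1 library. The number ranked higher in both forskolin lists, 288, was 295 to 573 without 1 library, the highest without vehicle replicate 2. As a share of desert regions it was 63.2%, against 44.6% of all regions of all 4 libraries. It was 64.4% against 48.7% without forskolin replicate 1 and 82.7% against 72.8% without forskolin replicate 2. Without vehicle replicate 1 it was 80.7% against 74.6%, and without vehicle replicate 2 it was 67.3% against 51.6%. The share of desert peaks, 3.92 points higher with forskolin, was 4.84 points from the top 50%, 2.01 from equal lists, 7.71 at 50 kb, 1.43 at 200 kb, 2.03 with the TSS of any transcript and 2.65 to 5.19 without 1 library. The core, AP-1, GC and rank differences between desert and other peaks kept their sign. Against peaks 10 to 100 kb out they were -4.46, 1.65, -3.09 and -0.275 points, the last with an exact p of 1, where the main values were -10.5, 9.37, -9.6 and -15.5. The AP-1 difference was 5.7 points with a 50 bp window. The cause of these shifts was not tested.

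The forskolin and vehicle libraries share replicate numbers. With the replicate block, the 3.92-point difference had p = 0.5 by exact permutation, the smallest that 2 pairs give, with differences of 3.7 and 4.14 points. Rank deviations of same-numbered libraries correlated at 0.19 over 8930 regions and 0.23 over 456 desert regions. With 2 pairs this does not show that the numbers pair the libraries. The lists give no reads in regions without a peak, so occupancy below the calling limit was not measurable.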
